A study of Homo sapiens with 48 samples.

Results

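The change of the angiotensin II (AII) response between 6 h and 24 h was described in human embryonic kidney cells (HEK293) that carry the AT1 receptor (AT1R). It was the log2 change under AII against control at 24 h minus the log2 change at 6 h, so a negative value marks a response that was smaller at 24 h. The series holds 48 libraries, of which 24 are labelled as control or AII, and 20 of these entered the difference. They were 4 control and 5 AII libraries at 6 h, and 6 control and 5 AII libraries at 24 h. AII was given at 1 nM, the control cells received no stimulus, and all cells were kept in medium without serum from before the stimulus. The remaining groups of the series received EGF at 10 µg/L, alone or with AII, for the same times. All cells came from 1 clone (B6) into which AT1R had been brought together with a puromycin resistance gene. While puromycin was used to select the clone, losartan kept the receptor blocked. The model therefore rests on a single line with a transfected receptor, and wild-type HEK293 cells are not part of the series.

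AT1R is the receptor through which AII contracts vessels, releases aldosterone and acts on kidney tubules. It couples mainly to Gq proteins, which activate phospholipase C, raise cytosolic calcium and activate protein kinase C, and the signal then reaches the MAP kinases ERK1/2 and transcription factors such as SRF, the EGR family and CREB. Stimulated AT1R is phosphorylated, binds arrestin and is taken into the cell, and transcripts induced by ERK1/2 are often short-lived and partly encode inhibitors of the same pathway. The stress pathways met here have their own factors: ATF6 and XBP1 raise chaperones of the endoplasmic reticulum, while ATF4 raises enzymes and transporters for amino acids.

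Total counts of the 20 libraries ranged from 17.8 to 26.9 M, with M for mega (mean 22, SD 2.76, n = 20). The 4 libraries left out were control 6 h replicates 1 and 2, AII 24 h replicate 4 and AII 6 h replicate 6. Among all 1128 pairs of libraries, 4 pairs differed by less than sampling noise, with a chi-square per degree of freedom below 1. Control 6 h replicate 1 and EGF 24 h replicate 2 reached 0.397, and control 6 h replicate 2 and AII 24 h replicate 4 reached 0.505, against 2.02 for the closest pair within the 4 groups used. On the scale of AII (0) to AII + EGF (1) at 6 h, AII 6 h replicate 6 lay at 0.86, while AII + EGF 6 h replicate 6 lay at 0.00, so both went against their labels. Among the libraries used, control 24 h replicate 6 and AII 24 h replicate 6 stood apart. On a scale from control 6 h (0) to control 24 h (1), they lay at 0.38 and 0.59, and the other 24 h libraries at 0.92 to 1.16. All 10 HEK293 markers were detected in each group, with summed levels of 3670 to 7690 normalised counts per M (CPM). Of 8 kidney tubule markers 6 were detected, with summed levels of 4.96 to 19 CPM, and UMOD and AQP2 had no count.

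The response to AII was present at 6 h and was not called for any gene at 24 h. Of 18614 genes tested, 64 were called higher (0.344%) and 1 was called lower (0.00537%) under AII at 6 h. At 24 h, 0 genes were called (0%) in edgeR's quasi-likelihood test, where the lowest Benjamini-Hochberg adjusted p was 0.853, and 0 were called by DESeq2. In edgeR 209 genes (1.12%) had an unadjusted p under 0.05 at 24 h, against 1960 genes at 6 h. DESeq2 gave 364 of 27177 genes at 24 h. Both counts at 24 h are below the share of 0.05 that arises with no response at all, so the p-values at 24 h ran high. The 0 calls therefore do not show that no response remained. The difference of the responses was called for 18 genes, all lower (0.0967%). To be called, a gene had to reach an adjusted p of 0.01, change 1.5-fold or more and exceed 5 CPM on average. In bulk RNA, a change in every cell and a change in a share of the cells cannot be told apart. Without the 2 libraries of 24 h that stood apart, 34 genes were called in the difference, 33 of them lower and 17 shared with the 18. With all 24 labelled libraries, 13 genes were called, all lower and 10 of them shared. Leaving out 1 library gave 11 genes in the difference without AII 6 h replicate 1 or control 6 h replicate 3 and 32 without control 24 h replicate 6. At 6 h the 65 genes became 33, 40 and 41 without control 6 h replicate 6, 3 and 5.

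**Figure D1:**
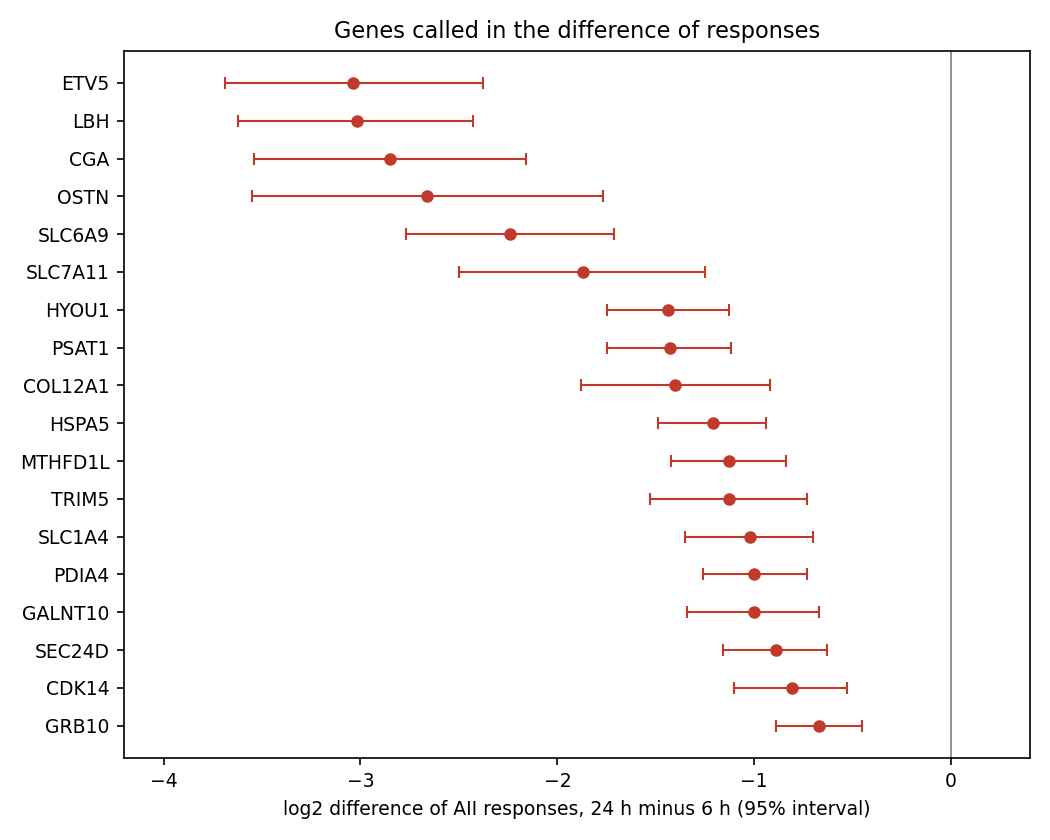
Log2 difference of the AII responses, 24 h minus 6 h, on the horizontal axis for the 18 called genes, with 95% intervals from edgeR (20 libraries). All intervals lie below 0, and the points run from -3.04 for ETV5 to -0.67 for GRB10.

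The 18 genes fell into 4 groups by the known roles of their products. Transcription factors and secreted signals (ETV5, LBH, CGA and OSTN) were the first group, with differences of -3.04 to -2.66. The others were chaperones and export factors of the endoplasmic reticulum (HYOU1, HSPA5, PDIA4, SEC24D) and genes of amino acid and one-carbon metabolism (SLC6A9, SLC7A11, PSAT1, MTHFD1L, SLC1A4). The last group, with no shared role, held COL12A1, TRIM5, GALNT10, CDK14 and GRB10. In all 18 genes the AII and control libraries did not overlap at 6 h and overlapped at 24 h. Their choice by the difference in these libraries largely fixed this pattern. Its share over all tested genes was not counted, and genes that were not called, such as AGTR1, also had it.

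ETV5 (chr3:186046314-186109089, GRCh38) is an ETS transcription factor whose transcription follows ERK1/2 activity. At 6 h its level was 1.24, 1.06, 0.546 and 0.890 CPM in the 4 control libraries and 9.31, 9.01, 7.24, 9.59 and 5.6 CPM in the 5 AII libraries. At 24 h the controls ranged from 0.71 to 1.02 CPM, and the AII libraries had 1.12, 0.608, 0.963, 0.927 and 0.932 CPM. Every AII library lay far above every control at 6 h, and the groups were interleaved at 24 h. The log2 difference was -3.04 (SE 0.31, adjusted p = 1.4e-05, edgeR with Benjamini-Hochberg adjustment). With all 24 labelled libraries it was -2.83 and not called (edgeR adjusted p = 0.137). Among the libraries then added, AII 6 h replicate 6 had 51.3 CPM of ETV5 and control 6 h replicate 1 had 5.89 CPM.

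LBH (chr2:30231534-30260028) encodes a transcription cofactor known from limb bud and heart. The 4 controls at 6 h had 10.8, 9.99, 9.87 and 6.63 CPM, and the AII libraries had 93.3, 96.6, 94.4, 86.7 and 81.7 CPM, a 9.72-fold change. At 24 h the lowest, median and highest control were at 9.25, 16.7 and 23.2 CPM, and the AII libraries had 23.6, 24.2, 23, 19.3 and 12.5 CPM. Both sets overlapped at 24 h, although 2 of the AII libraries lay above the highest control. The difference was -3.02 (SE 0.29, edgeR adjusted p = 7.69e-06), and the 95% interval of the 24 h change ran from -0.12 to 0.64 on the log2 scale.

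CGA (chr6:87085498-87095106) encodes the alpha subunit shared by the glycoprotein hormones, and cAMP and protein kinase C are known to raise its transcription. The controls at 6 h had 1.18, 1.24, 0.873 and 2.05 CPM, and the AII libraries 8.66, 9.07, 14.1, 14.3 and 13.3 CPM. At 24 h the controls lay at 0.963, 1.15 and 1.72 CPM (lowest, median, highest), and the AII libraries had 1.02, 1.46, 1.93, 1.37 and 1.61 CPM. The AII level at 24 h was again within the range of the controls, except for the highest library. The 6 h change was 8.77-fold and the 24 h change 1.22-fold, and the difference was -2.85 (SE 0.33, edgeR adjusted p = 4.8e-05).

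KCNA1 (chr12:4909905-4918256), a voltage-gated potassium channel, showed the same pattern at a level too low for a call. Its controls at 6 h had 0.161, 0.138, 0 and 0.089 CPM and its AII libraries 3.16, 3, 2.98, 2.3 and 1.41 CPM. At 24 h the AII libraries had 0, 0.0405, 0.0458, 0 and 0.0717 CPM, and no control passed 0.14 CPM. The groups were apart at 6 h, and at 24 h both were at or near 0, where no fold is given. The 6 h change passed the p threshold (log2 4.62, edgeR adjusted p = 9.91e-06) but not the level of 5 CPM, and the difference of responses did not pass (edgeR adjusted p = 0.120).

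OSTN encodes osteocrin, a secreted peptide of bone and muscle that slows clearance of natriuretic peptides. At 6 h its AII libraries had 10.3, 10.7, 6.71, 8.67 and 5.6 CPM. These fell to 1.36, 1.34, 1.1, 1.02 and 1.07 CPM at 24 h. The controls ranged from 0.623 to 2.13 CPM at 6 h and from 0.499 to 1.55 CPM at 24 h. The difference was -2.66 (SE 0.43, edgeR adjusted p = 0.00344) and lost its call in 7 of 25 alternatives, 5 of which left out 1 library and 1 of which took the run of title numbers as a block (-2.24, edgeR adjusted p = 0.0145).

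**Figure D2:**
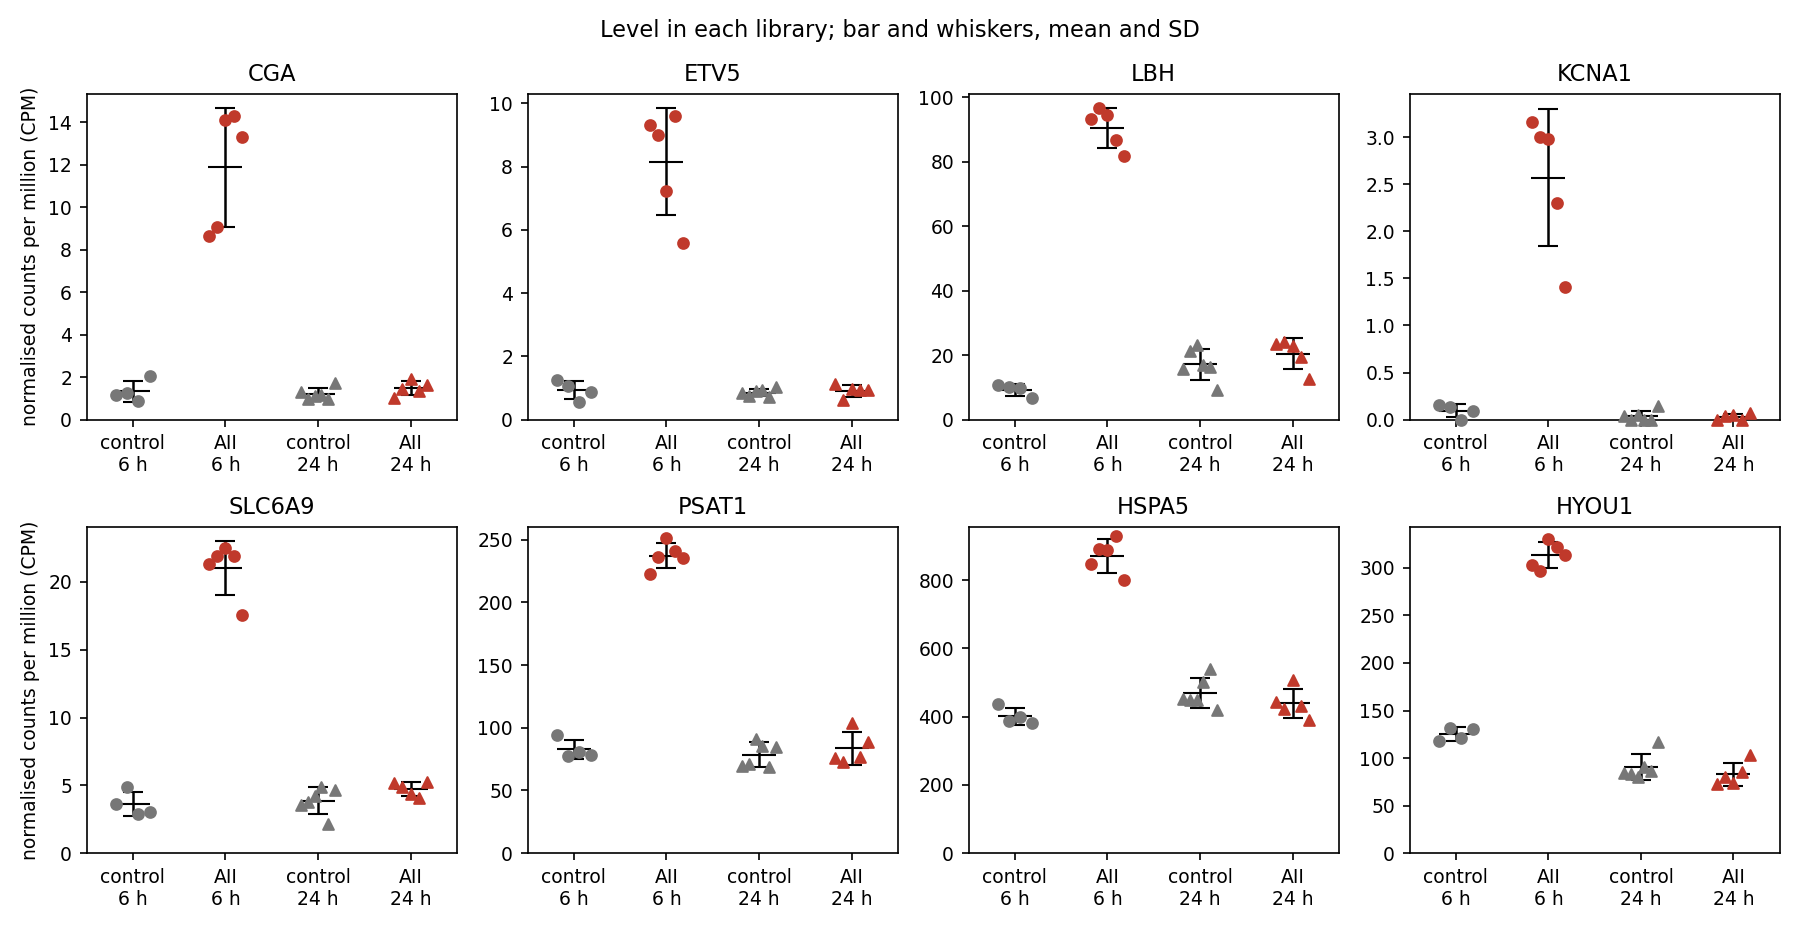
Normalised CPM (vertical axes, separate linear scales from 0) of 8 genes in each library of the 4 groups, with bar and whiskers for mean and SD. The 5 AII libraries at 6 h lie above all 4 controls in every panel, and the 5 AII libraries at 24 h overlap the 6 controls.

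Of 18 listed genes of the unfolded protein response, all tested, 6 rose at 6 h (HYOU1, HSPA5, CRELD2, PDIA4, HSP90B1, PDIA6), none was called at 24 h, and 3 were called in the difference (HYOU1, HSPA5, PDIA4), where 0.344% of all tested genes were called higher at 6 h and 0.0967% lower in the difference. The list's median log2 change was 0.56 at 6 h and -0.07 at 24 h, against -0.01 and 0.00 over all tested genes. HSPA5 (chr9:125234853-125241343), the main chaperone of the endoplasmic reticulum, had 436, 388, 400 and 380 CPM in the 6 h controls and 847, 891, 889, 928 and 799 CPM under AII. At 24 h it had 442, 423, 508, 431 and 390 CPM under AII, within or just below the controls at 420 to 541 CPM. Its 2.17-fold change at 6 h was gone, and the 95% interval at 24 h ran from -0.28 to 0.09 on the log2 scale (difference -1.21, SE 0.13, edgeR adjusted p = 1.93e-05).

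HYOU1, a chaperone of the same compartment that exchanges nucleotides on HSPA5, had 118 to 132 CPM in the 6 h controls and 297 to 330 CPM under AII. At 24 h its AII libraries had 72.9, 80.4, 74.3, 84.9 and 103 CPM and its controls 80.0 to 117 CPM. Its control level was also lower at 24 h than at 6 h (log2 -0.48, below the fold minimum of the call), so the AII level ended below the controls of 6 h. The difference was -1.44 (SE 0.15, edgeR adjusted p = 1.41e-05). PDIA4, a disulphide isomerase, ranged from 334 to 389 CPM under AII at 6 h and from 154 to 208 CPM at 24 h, with controls at 179 to 197 CPM and 170 to 219 CPM. SDF2L1, a cofactor of these chaperones, had a log2 change of 1.09 at 6 h that did not pass (edgeR adjusted p = 0.0318). In all, 16 of the 18 listed genes had a positive 6 h value. Among the genes not called, MANF and DNAJB11 each had 0.73 (edgeR adjusted p = 0.0252 and 0.0104), and the lowest values were 0.00 for the stress transcription factor XBP1 and -0.17 for the HSPA5 cofactor DNAJB9 (all 4 chosen after their values were seen).

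Of 36 listed genes of the amino acid response, known as targets of ATF4, 35 were tested, of which 7 were called higher at 6 h, 4 were called lower in the difference (SLC6A9, SLC7A11, PSAT1, SLC1A4) and none was called at 24 h, beside the same 0.344% and 0.0967% of all tested genes. The median log2 change was 0.33 at 6 h and 0.03 at 24 h, and 28 of the 35 had a positive 6 h value. SLC6A9, the glycine transporter GLYT1, had 3.60, 4.88, 2.89 and 3.07 CPM in the 6 h controls and 21.3, 21.9, 22.5, 21.9 and 17.6 CPM under AII. At 24 h it had 5.14, 4.91, 4.36, 4.05 and 5.27 CPM under AII, against 2.13, 3.99 and 4.89 CPM for the lowest, median and highest control. The 24 h AII libraries thus reached slightly past the top of the controls, and the 95% interval of that change, -0.06 to 0.65, included 0. The difference was -2.24 (SE 0.25, edgeR adjusted p = 3.37e-05).

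PSAT1, the aminotransferase of serine synthesis, had 223, 236, 251, 241 and 235 CPM under AII at 6 h, all above controls at 77.7 to 94.0 CPM. At 24 h the AII libraries had 75.7, 72.6, 104, 76.4 and 88.9 CPM and the controls 69.1 to 91.1 CPM, with a difference of -1.43 (SE 0.15, edgeR adjusted p = 1.41e-05). SLC7A11, which imports cystine in exchange for glutamate, had 50.1, 51.0, 35.3, 38.2 and 29.6 CPM under AII at 6 h and 6.18 to 10.4 CPM in the controls. At 24 h it had 13.2, 13.2, 11.3, 12.6 and 18.5 CPM under AII and 5.44 to 15 CPM in the controls. Of the genes described so far, SLC7A11 kept the highest 24 h value (log2 0.41, 95% interval 0.00 to 0.82), and 1 of its AII libraries lay above all controls. MTHFD1L, a mitochondrial enzyme of folate metabolism, fell from 147 to 171 CPM under AII at 6 h to 45.5 to 63.3 CPM at 24 h, with controls at 62.5 to 80.4 CPM and 46.1 to 61.2 CPM. Of the same list DDIT3, the stress factor CHOP, had a log2 change of -0.72 at 6 h, which did not pass (edgeR adjusted p = 0.101, chosen after its value was seen). ATF3 had -0.44 and ATF4 itself -0.32 at 6 h, and neither passed (edgeR adjusted p = 0.0357 and 0.282, chosen likewise).

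Promoter sequences were examined because some genes of the stress pathways were among those called at 6 h and CGA has a known cAMP response. RefSeq promoters (GRCh38.p14, 250 bases before to 50 bases after the start) were found for 52 of the 65 genes called at 6 h and for 15 of the 18. ADAMTS1, CBSL, COL3A1, ETV5, SEC24D, SLC7A11, STON1, TNFRSF12A, UNC5B, YARS1, ZHX2 and the loci AC022075.1 and FP565260.3 had no entry. A gene counted as holding a motif if the promoter of any of its listed starts did, so genes with more starts had more chances. The full cAMP response element TGACGTCA stood in 5 of the 52 genes (9.62%, CGA, CREB3L2, EPHA2, KIF1A, LPP) and in 3.68% of 11320 tested genes with a promoter. The ER stress response element, CCAAT and CCACG separated by 9 bases, stood in 5 (9.62%; CRELD2, HSP90B1, HSPA5, PDIA6, TRIM5) and in 0.15% of the tested genes, which were 17 genes. It was added after the unfolded protein genes were seen among the calls, so its share is a description of a chosen motif. The ATF4 element TGATGNAAT stood in 2 (3.85%; BCAT1, MTHFD1L) against 0.751%.

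Sequences are shown for 4 of these genes, 200 bases up to the base before the start, read 5′ to 3′ on the gene's strand with the motif in capitals. The first shows 2 cAMP response elements of CGA, starting at -142 and -124 from the start (chr6:87095107-87095306, minus strand). Then follow the ER stress response element of HSPA5 at -66 (chr9:125241344-125241543, minus strand) and of CRELD2 at -80, on the opposite strand (chr22:49918434-49918633, plus strand). The last shows the ATF4 element of MTHFD1L at -129 (chr6:150866286-150866485, plus strand), which lies at -90 and 25 from other listed starts of the gene.
CGA: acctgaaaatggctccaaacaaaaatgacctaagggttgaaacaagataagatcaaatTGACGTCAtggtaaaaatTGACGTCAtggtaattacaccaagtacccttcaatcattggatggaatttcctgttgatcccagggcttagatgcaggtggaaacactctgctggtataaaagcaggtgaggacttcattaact
HSPA5: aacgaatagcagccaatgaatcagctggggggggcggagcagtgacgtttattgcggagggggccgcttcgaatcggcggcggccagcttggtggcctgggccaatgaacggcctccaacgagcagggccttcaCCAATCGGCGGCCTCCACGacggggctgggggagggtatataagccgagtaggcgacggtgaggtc
CRELD2: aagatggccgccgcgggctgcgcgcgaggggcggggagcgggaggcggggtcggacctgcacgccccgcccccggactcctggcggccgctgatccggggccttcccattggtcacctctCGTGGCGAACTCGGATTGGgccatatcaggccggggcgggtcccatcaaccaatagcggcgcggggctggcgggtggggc
MTHFD1L: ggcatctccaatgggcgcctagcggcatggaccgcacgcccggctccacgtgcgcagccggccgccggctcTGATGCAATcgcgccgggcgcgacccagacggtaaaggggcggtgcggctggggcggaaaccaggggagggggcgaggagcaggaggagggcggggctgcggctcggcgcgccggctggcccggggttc

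A match shows only that these letters are present, and no binding was measured. All motifs were searched on both strands. The part TGACG of the cAMP element, which the full element also contains, stood in 42.3% of the 52 genes against 39.5%, and the AP-1 motif TGANTCA in 11.5% against 7.05%. The EGR motif GCGNGGGCG stood in 34.6% against 19.4%, and the CArG box, the binding motif of SRF, in 3.85% (LPP and TPM4) against 1.54%.

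COL12A1, a fibril-associated collagen, had 28, 26.9, 24.4, 23.6 and 21.6 CPM under AII at 6 h, all above controls at 4.95 to 8.20 CPM, and 15.4, 17.4, 10.9, 12.6 and 10.9 CPM under AII at 24 h, with controls at 7.88 to 12.5 CPM. It kept 1.31-fold at 24 h (95% interval 0.07 to 0.70 on the log2 scale), and 3 of its AII libraries lay above every control. Its difference of -1.40 (edgeR adjusted p = 0.00462) lost the call in 11 of 25 alternatives. SEC24D, a coat protein of export vesicles, had a difference of -0.89, SLC1A4, a neutral amino acid transporter, of -1.02, GALNT10, an O-glycosylating enzyme of the Golgi, of -1.0, CDK14, a cyclin-dependent kinase, of -0.81, and GRB10, an adaptor of receptor tyrosine kinases, of -0.67 (edgeR adjusted p between 0.000965 and 0.00615). CDK14 lost its call in 18 of 25 alternatives, GALNT10 in 8, GRB10 in 6 and SLC1A4 in 1, while SEC24D kept it.

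Genes called at 6 h had small changes at 24 h. Over the 64 genes called higher, the median log2 change was 0.88 at 6 h and 0.051 at 24 h (range -0.37 to 0.41), and 42 of them (65.6%) had a positive 24 h value against 50% of all tested genes. For 56 of the 64, the 95% interval of the 24 h change lay within 1.5-fold in both directions, as it did for 5372 of 5751 tested genes above 5 CPM with a positive 6 h value. An unadjusted p under 0.05 at 24 h was found for 4 of the 64 (6.25%), against 1.12% of all tested genes. The interval reached 1.5-fold for LBH, CGA, OSTN, SLC6A9, SLC7A11, COL12A1, SLC2A1 and COL3A1. Expressed as a share of the 6 h log2 change, the 65 called genes kept a median of 5.93% at 24 h. By AII library at 24 h this share was 7.88, 16.8, 8.42, 6.41 and -7.57% (mean 6.39 ± 8.79, SD, n = 5), the last in replicate 6, which stood apart. All 65 genes were chosen by their 6 h change in these libraries, so their 6 h values and differences are no test of that change.

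**Figure D3:**
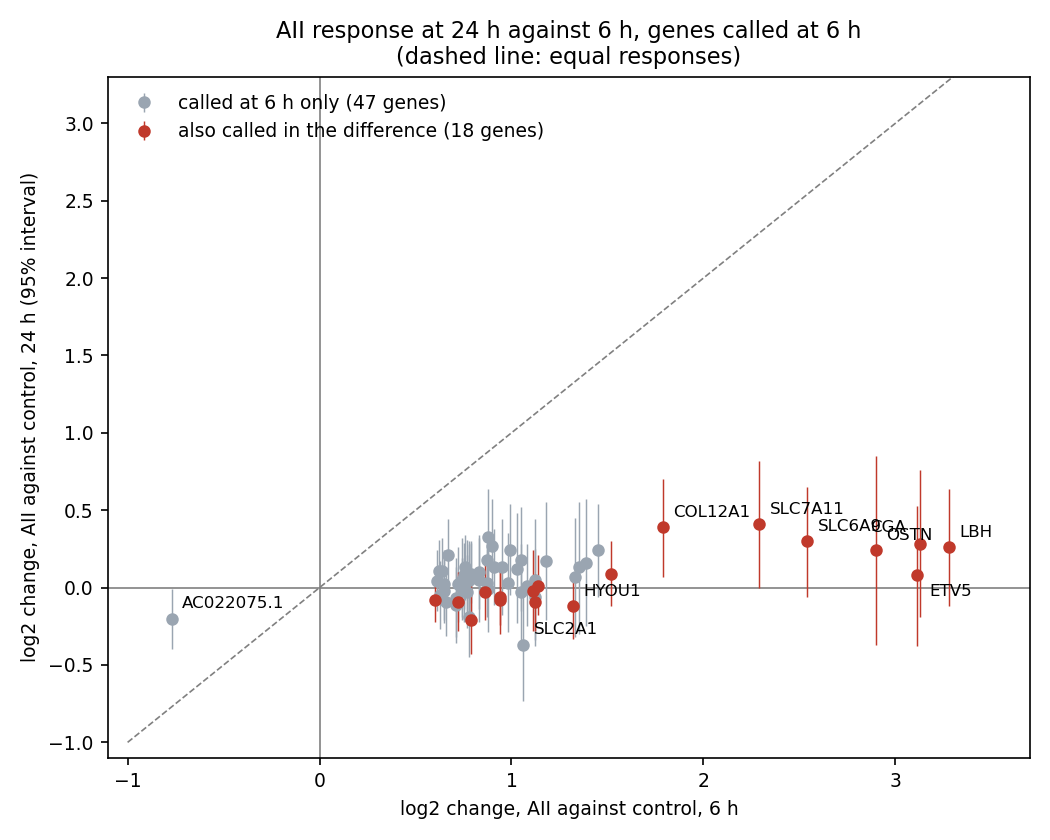
Log2 change under AII against control at 6 h (horizontal) and 24 h (vertical, 95% intervals) for the 65 genes called at 6 h, with the 18 called in the difference in red. At 24 h all genes lie between -0.37 and 0.41, and the grey genes COL3A1 (0.88 and 0.33) and DOP1B (0.67 and 0.21) are among the nearest to the dashed line of equal responses.

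Genes were also chosen without these 20 libraries. The comparison of AII + EGF (4 libraries) with EGF (3 libraries) at 6 h called 432 of 16765 genes higher (2.58%), of which 431 were tested in the 20 libraries. Under AII alone their median log2 change was 0.37 at 6 h and 0.041 at 24 h, and the median share kept was 7.43%. The difference was negative for 386 of them (89.6%), a share close to the 88.7% of all genes above 5 CPM with a positive 6 h change, and the 24 h value was positive for 63.6%, against 46.3% of those genes. These 2 backgrounds were chosen by the 6 h value in the same libraries. Of the 431, 14 were among the 18 genes and 36 had been called higher under AII at 6 h (8.35% of the 431 and 56.2% of the 64). The 311 genes called lower had medians of -0.23 at 6 h and 0.008 at 24 h.

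The AII response became smaller by different routes. Among the 64 genes, the level in AII cells fell from 6 h to 24 h for 31, against 636 of all tested genes (3.42%). Among these 31, the control level rose for LBH and also fell for SLC7A5, a large neutral amino acid transporter. For 18 further genes the control level rose and the AII level was not called, and for the other 15 neither was called. Control cells differed widely between the times, with 855 genes called higher (4.59%) and 341 lower (1.83%), and AII cells had 1089 called higher (5.85%). No run of title numbers held both times. A change with time and a difference between runs therefore cannot be told apart in either group. The AII 6 h libraries enter both the choice of the 64 genes and the change of the AII level. A high value there favours the choice and a fall, so part of the excess over 3.42% is built in. The control 6 h libraries enter both the choice of the 64 genes and the change of the controls, so a low value there raises both.

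CCDC80, a secreted matrix protein, and THRB, a thyroid hormone receptor, had the largest rises in control cells among genes of this kind. CCDC80 had 14.6, 16.3, 15.9, 15.7 and 17.8 CPM under AII at 6 h and 21.2, 18.3, 18.5, 17.1 and 10.0 CPM at 24 h, while the controls went from 4.98 to 7.26 CPM to a median of 17 CPM (6.38 to 19.8). The control level thus came to that of the AII cells (log2 1.31 in controls, edgeR adjusted p = 0.000434), except in replicate 6 at 6.38 CPM. THRB in control cells had a log2 change of 1.36 between the times, and in AII cells of 0.09. NAB2, a corepressor of EGR factors, rose by 0.73 on the log2 scale in controls (edgeR adjusted p = 0.00207), and had 15.8 to 20.8 CPM under AII at 6 h and 11.5 to 15.3 CPM at 24 h.

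TRIM5, an antiviral restriction factor, was the gene of the 18 that followed this route. It had 8.93, 8.14, 10.6, 10.7 and 9.80 CPM under AII at 6 h and 9.60, 8.96, 8.53, 8.92 and 7.35 CPM at 24 h, with controls at 3.98 to 5.03 CPM and then at 6.52 to 10.7 CPM. Its difference of -1.13 (edgeR adjusted p = 0.00615) lost the call in 18 of 25 alternatives. The split by route depended on the libraries. With all 24 labelled libraries, the control level rose for 1 of the 64 genes with the AII level not called, the AII level fell for 34, and 29 were called in neither. In that fit 26 genes in all were called between the times in control cells. The left-out control 6 h replicates 1 and 2 lay at 0.78 and 0.70 on the scale from control 6 h to control 24 h. Each was near-identical in counts to a library labelled as 24 h, so adding them makes the 6 h controls resemble 24 h libraries.

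**Figure D4:**
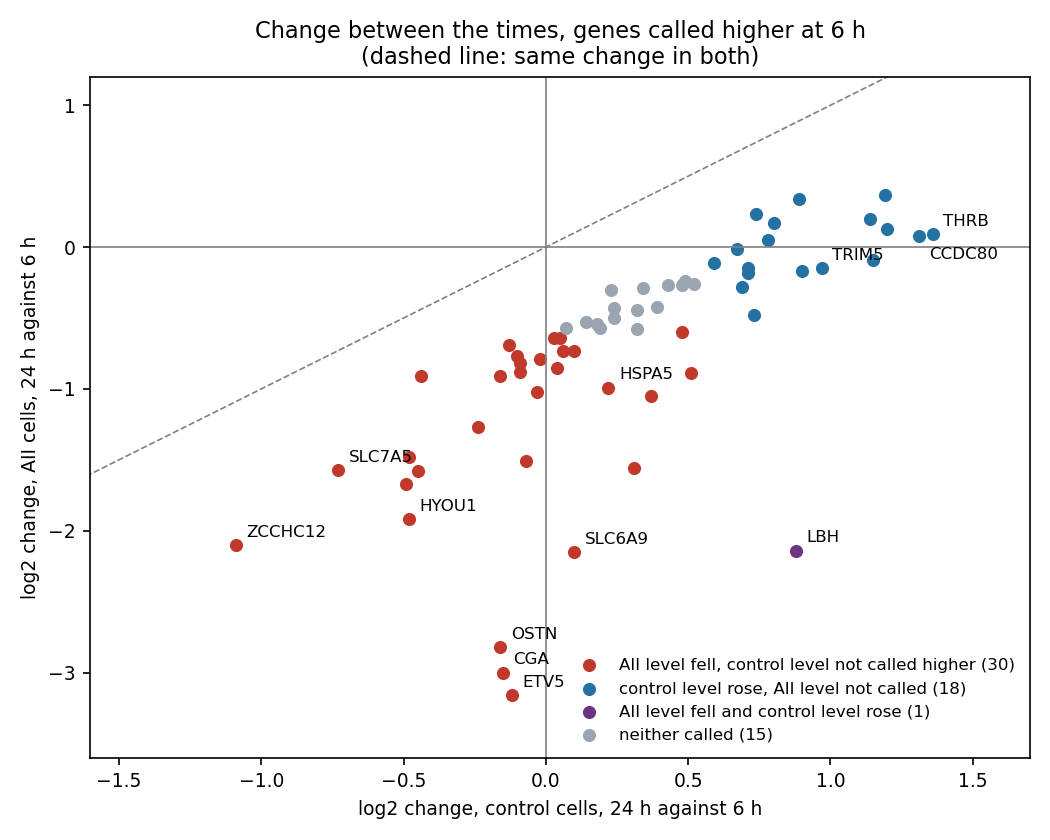
Log2 change from 6 h to 24 h in control cells (horizontal) and in AII cells (vertical) for the 64 genes called higher at 6 h, coloured by which level was called. ETV5, CGA, OSTN and SLC6A9 lie low near the vertical line at 0, and the 18 blue genes lie to the right with AII changes near 0.

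The single gene called lower at 6 h was the non-coding locus AC022075.1, whose counts are uncertain because strand and multiple mapping are not stated. Its AII libraries had 13.3, 12.2, 9.53, 11.9 and 10.8 CPM against controls at 19.2 to 20.2 CPM, and 16.6 to 19.7 CPM against 18 to 25.6 CPM at 24 h. CBSL, a near copy of CBS, and FP565260.3 are uncertain in the same way.

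The remaining lists of the pathway are read against 0.344% of all tested genes called higher at 6 h and 0.0967% called lower in the difference. Of 20 tested MAPK feedback genes, ETV5 and SPRED2, an inhibitor of Ras signalling, rose at 6 h and ETV5 was called in the difference. ETV4, a close relative of ETV5, had 0.0753 ± 0.0612 CPM (SD, n = 4) in controls and 1.32 ± 0.274 CPM (SD, n = 5) under AII at 6 h and 0.0649 CPM under AII at 24 h, below the level of a call (chosen after its value was seen). Of 28 immediate early genes, NAB2 and the nuclear receptor NR4A1 rose at 6 h, while FOS (log2 0.66, edgeR adjusted p = 0.596) did not pass, and none was called in the difference. Of 16 CREB targets, CGA and NR4A1 rose and CGA was called in the difference. TPM4 rose among 24 cytoskeletal targets of SRF and its cofactors, ADAMTS1 among 15 proteases and inhibitors, and YARS1 among 20 cytosolic tRNA synthetases. None of these lists had a gene called at 24 h.

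Lists of the receptor chain and of growth gave 0 calls at both times and in the difference. They were the AT1R and Gq chain (26 genes tested), RGS and calcineurin feedback (19), potassium channels (19), cholesterol synthesis (23), DNA replication (20), mitosis (20) and ribosomal proteins (38). Of the potassium channels, KCNA1 passed the p threshold at 6 h but not the level. Of cholesterol synthesis, INSIG1 (log2 0.50, edgeR adjusted p = 0.00745) passed it but not the fold minimum. With 0.344% and 0.0967% of all tested genes called at 6 h and in the difference, 0 calls in lists of this size do not set them apart. AGTR1, whose counts include the transfected receptor, had 4450, 4260, 4570 and 4020 CPM in the 6 h controls and 5880, 6120, 6260, 6170 and 5770 CPM under AII. At 24 h the AII libraries had 8550, 7810, 8560, 8310 and 5460 CPM and the controls 4730 to 10200 CPM. The groups did not overlap at 6 h and overlapped at 24 h, but neither the 6 h change (log2 0.48, edgeR adjusted p = 0.232) nor the difference (-0.43, adjusted p = 0.809) passed. In control cells AGTR1 was called higher at 24 h than at 6 h (log2 0.79, edgeR adjusted p = 0.00137). All 38 ribosomal protein genes had a negative 6 h value, with a median log2 of -0.20 at 6 h and -0.04 at 24 h and 0 calls. Their summed levels at 6 h overlapped, at 66600 to 115000 CPM in controls and 59100 to 94000 CPM under AII.

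**Figure D5:**
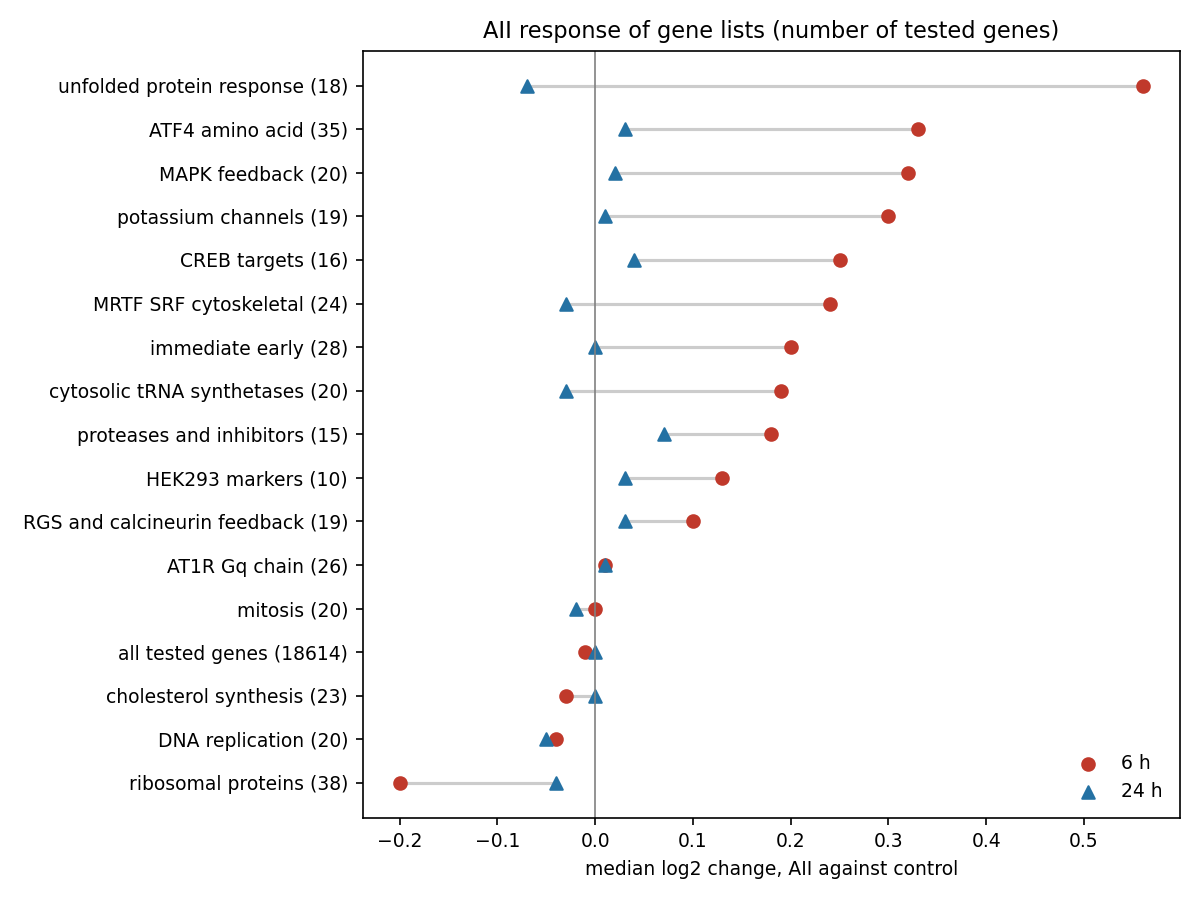
Median log2 change under AII against control for each gene list (number of tested genes in brackets) at 6 h (red circles) and 24 h (blue triangles). The list of the unfolded protein response runs from 0.56 to -0.07, and the 24 h medians of all lists drawn lie between -0.07 and 0.07.

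The same 18 genes were read under the other stimuli, whose comparisons share the control libraries with AII, in a fit of 38 libraries and 19626 genes. Under EGF alone 6 of them were called higher at 6 h (all genes 1.62%) and 6 at 24 h (0.163%). Under AII + EGF 16 were called higher at 6 h (6.45%) and 8 at 24 h (1.7%), with 1 lower at 24 h, GALNT10 at -0.69. The difference of the AII + EGF responses was called lower for 13 of the 18 (6.08% of all genes). That of the EGF responses was called lower for 3 of the 18, where 1.03% of all genes were called in either direction.

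Under AII + EGF, CGA had 2.22 (SE 0.32) at 6 h and 2.07 (SE 0.26) at 24 h. Its difference there was -0.14 (SE 0.42, edgeR adjusted p = 0.846). Under EGF alone CGA had 0.47 at 6 h and 0.86 at 24 h and was called at neither time. ETV5 was called higher at 24 h under EGF (3.78) and AII + EGF (3.61), next to 0.07 under AII in the same fit. HSPA5 and SEC24D were also called at both times under AII + EGF, at 1.34 and 1.42 at 6 h and 0.79 and 1.03 at 24 h. Their differences of -0.55 and -0.39 were not called (edgeR adjusted p = 0.0487 and 0.106). KCNA1 had a log2 change of 7.58 at 6 h and a called difference of -5.02 under AII + EGF (edgeR adjusted p = 0.000171).

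The titles number the libraries in 8 runs, and the labels do not say what a run stands for. Runs 1, 4, 5 and 7 held 6 h libraries alone, and runs 2, 3, 6 and 8 held 24 h libraries alone. No run held both times, so a difference between the times cannot be told apart from a difference between runs. Within run 4 all 18 genes were higher under AII at 6 h (median log2 1.39) and within run 5 likewise (1.24), as fixed by their choice, and runs 1 and 7 held AII or control libraries alone. Within runs 2, 3, 6 and 8, the median at 24 h was 0.05, 0.04, 0.04 and -0.02, with 12, 10, 11 and 9 of the 18 genes above 0. With the run as a block, 36 genes were called in the difference, 35 of them lower and 16 shared with the 18. OSTN (edgeR adjusted p = 0.0145) and CDK14 (0.0225) lost their calls in that fit.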

How the data were processed

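Poly(A) RNA was sequenced by the authors, mapped to hg38 with HISAT2 2.1.0 and counted per Ensembl gene with featureCounts. The authors deposited raw counts, used here as deposited. Strandedness and the handling of multiply mapped reads are not given in the sources used here. The table lists 60610 genes, and its 37 mitochondrial genes have 0 counts throughout. It holds 0 columns outside the 48 libraries. The members, gene lists and named-gene rule were chosen with earlier results of these data known.

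Counts were tested in R 4.3.3 with edgeR 4.0.16 (filterByExpr by group, TMM factors, quasi-likelihood fit, 4 groups, 16 residual degrees of freedom, no covariates). CPM values were scaled with TMM factors. P-values were adjusted over all 18614 genes by Benjamini-Hochberg. For calls, the mean above 5 CPM was the treated mean for a rise, the control mean for a fall, and the highest of the means for a difference or a change with time. DESeq2 1.42.0 was an alternative, with other scaling, filters, thresholds, libraries, a run block and each library left out in turn. The labels do not say that replicates came from separate cultures, so p-values measure the spread between libraries. The tests were first run on simulated data.

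Named genes were the 12 most negative of the difference, the 12 largest rises at 6 h and its fall, CGA, KCNA1, AGTR1 and up to 4 members per list above 5 CPM. The other called genes, motif holders and list members were named after their values were seen. Positions and promoters came from RefSeq. Blood and endothelial markers summed to 2.45 to 7.47 CPM.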

Additional observations from a re-analysis of the deposited data

Results flagged for a closer look

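In 10 of 100 groups of 4 to 6 libraries (25 genes), the lowest or highest library lay far from the others, where chance flags about 1 in 20 groups, or 5. Of the 10, 7 concerned control or AII replicate 6 at 24 h, which stood apart from the other 24 h libraries. In AII replicate 6 at 24 h, AGTR1 was low at 5460 CPM (others 7810 to 8560) and CDK14 low at 27.1 CPM (31.4 to 32.5). GALNT10 was high there at 22.2 CPM (15.3 to 17.3) and SLC7A11 at 18.5 CPM (11.3 to 13.2). In control replicate 6 at 24 h, CCDC80 was low at 6.38 CPM (16.2 to 19.8). HYOU1 was high there at 117 CPM (80.0 to 91.1), as was KCNA1 at 0.140 CPM (0 to 0.0453). The other 3 were ANXA3 at 9.26 CPM in AII 24 h replicate 3 (5.20 to 6.14), PSAT1 at 94.0 CPM in control 6 h replicate 3 (77.7 to 80.4) and SLC6A9 at 17.6 CPM in AII 6 h replicate 5 (21.3 to 22.5).

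The AII response differed between 6 h and 24 h by edgeR's test of the difference for 18 genes. The log2 differences were -3.04 for ETV5, -3.02 for LBH, -2.85 for CGA, -2.66 for OSTN, -2.24 for SLC6A9 and -1.87 for SLC7A11. They were -1.44 for HYOU1, -1.43 for PSAT1, -1.40 for COL12A1, -1.21 for HSPA5, -1.13 for MTHFD1L and for TRIM5 and -1.02 for SLC1A4. The smallest were -1.0 for PDIA4 and for GALNT10, -0.89 for SEC24D, -0.81 for CDK14 and -0.67 for GRB10.

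The 4 libraries left out of the comparisons also gave levels for these 18 genes. Above every control library of 6 h lay 10 of the genes in control 6 h replicate 1, 7 in control 6 h replicate 2, 8 in AII 24 h replicate 4 and 17 in AII 6 h replicate 6. KCNA1 had 421 counts in AII 6 h replicate 6, against 35 to 59 in the 5 AII libraries used at 6 h.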

How the results depend on the processing

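The 24 h response held 0 calls under every alternative. The difference, 18 genes, came to 41 with DESeq2, 31 at an adjusted p under 0.05, 36 with the run as a block and 34 without replicate 6 of both 24 h groups (chosen after seeing the data). The 6 h response, 65 genes, came to 105 with DESeq2 and 104 at an adjusted p under 0.05. Changes with time in AII cells, 1725 genes, came to 3360 with no fold minimum and 2865 with no abundance minimum. In control cells, 1196 genes, they came to 2244 and 1915, to 797 with only these 2 groups fitted, to 135 with 23 libraries (AII 6 h replicate 6 left out) and to 26 with all 24. Leaving out 1 library gave 11 genes in the difference without AII 6 h replicate 1 or control 6 h replicate 3, and 32 without control 24 h replicate 6. It gave 33 (without control 6 h replicate 6) to 81 genes at 6 h, with 40 and 41 without control 6 h replicates 3 and 5. The ranges were 1412 to 1955 in AII cells and 908 to 1648 in control cells. The share kept at 24 h was 3.29 to 7.94% over these and 5.73 to 7.43% over the other alternatives. The cause was not tested.

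The 18 genes were chosen by a negative difference, and the 25 alternatives mostly refit the same libraries, so a constant sign was largely fixed. Under these 25 alternatives the 18 genes stayed negative in all 450 values and kept 372 of 450 calls. LBH, CGA, SLC6A9, HYOU1, PSAT1, HSPA5, MTHFD1L, SEC24D and PDIA4 kept theirs in all 25. ETV5 and SLC1A4 lost it with all 24 libraries, and SLC7A11 and GALNT10 in 8 alternatives each, GRB10 in 6 and CDK14 in 18. Replicate numbers follow the order of deposition and paired no libraries, and the run was the only block fitted. It ended the calls of OSTN (edgeR adjusted p = 0.0145) and CDK14 (0.0225). The 95% intervals at 24 h reached 1.5-fold for 8 of the 64 genes called higher at 6 h, so a change of that size was not excluded for these 8.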
